A study of Mus musculus with 8 samples.

Results

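Variation between normal livers was described from the 5 mice whose labels read Mod1 WT, taken from the 8 mice of the series, and across all 19896 named genes that the array measured in them. These mice, numbered 14, 15, 21, 22 and 26 in the labels, were littermate controls of mice lacking Me1 (older name Mod1), the gene of cytosolic malic enzyme. They are labelled as wild type and carry no knockout allele. The sources used here give no age, sex, strain, diet, feeding state or hour of collection. Total RNA of each whole liver was compared on 2-colour arrays with 1 common reference, pooled liver RNA of 5 wild-type animals, and whether the pool held the same 5 animals is not stated. The knockout mice were not used.

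Each value is the log2 ratio of a mouse to that pool, so 0 is the level of the pool and a difference of 1 is 2-fold. The base of the logarithm and the direction of the ratio are not stated with the values and were inferred, and with the opposite sign every higher and lower would be exchanged while SDs and shared patterns would stay. The sign of single arrays is not settled either, since 2 checks of the sign disagreed. Over all probes mouse 22 correlated below -0.3 with mice 14 and 26. The disagreement lay in other turnings. With mouse 22 alone turned, both checks gave a larger deviation than as deposited (0.479 against 0.291, and 0.515 against 0.0902). With mouse 22 turned, 644 genes in place of 880 reached a 2-fold range between the lowest and the highest mouse. Every statement that mouse 22 was highest or lowest rests on its sign as deposited. For some lists the place with the sign turned is given too. Lists without it, such as the conjugation enzymes, can depend on that sign as well. A ratio says how a gene differs between livers and nothing of how abundant its RNA is. The spread of a gene is given as the standard deviation (SD, n = 5 mice), and a gene is called varying where its highest and lowest mouse differed by at least 2-fold. With 5 mice an SD is loosely known: its 95% chi-square interval under a normal spread runs from 0.599 to 2.87 times the SD. Each mouse has 1 deposited value, so the spread holds both the difference between animals and the error of the array, and no test was run. The 52 gene lists described below were compiled from general knowledge of mouse liver, with earlier results of these data known.

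Liver expression differs between littermates for known reasons that act in the same tissue at once. The pattern of growth hormone pulses sets the male-biased and female-biased steroid and drug enzymes of the mouse liver through STAT5 and BCL6, with androgen as an upstream input. Feeding drives SREBP, the transcription factors of sterol and fatty acid synthesis, while fasting brings fatty acids that activate PPAR-alpha, the receptor behind peroxisomal and omega oxidation. Interferons, released on infection or cell damage, switch on antiviral genes in hepatocytes and in Kupffer cells, the resident macrophages. These are background facts, and none of these states was measured here.

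The median SD over all named genes was 0.109, and the middle 50% of genes lay between 0.0676 and 0.178. The median distance from the lowest to the highest mouse was 1.21-fold. In all, 880 of 19896 named genes varied, which is 4.42%, and 130 of them (0.653%) differed by at least 4-fold. At the upper end, the 95th percentile of the SD was 0.386, the 99th was 0.715 and the largest was 3.64. Of the 16273 probes without a gene name, 617 (3.79%) had a range of at least 2-fold.

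The arrays were not equally wide. The SD of the log2 ratios over named genes was 0.132 in mouse 14, 0.143 in mouse 15, 0.145 in mouse 21, 0.290 in mouse 22 and 0.194 in mouse 26. Mouse 22 held 43.6% of the total sum of squares around the gene means and mouse 26 held 22.1%, against 11.7% or less in each of the others. Across all named genes mouse 22 was the highest of the 5 in 29.5% and the lowest in 39.6%. The other mice were highest in 13.4% (mouse 14), 15.2% (mouse 15), 15.3% (mouse 21) and 26.5% (mouse 26), and lowest in 9.73%, 14.6%, 16.5% and 19.6% in the same order. Counts of list members that peak in a mouse are to be read against these shares. Without mouse 22 the number of varying genes was 426 in place of 880, and the median SD was 0.0758 in place of 0.109.

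Where a gene had several probes, they differed most in mouse 22 as well. Over 2869 such genes the SD of the probes around the mean of their gene was taken as a root mean square. It was 0.244 in mouse 22, 0.151 in mouse 26 and 0.102 to 0.109 in mice 14, 15 and 21. How much of the width of the array of mouse 22 came from the animal was not tested. Of 66 genes with several probes and at least a 2-fold range, 35 showed that range in every probe. In 41 of the 66 (62.1%) all probes named the same highest and the same lowest mouse, compared with 14.5% of all 2869 genes with several probes. For 25 of the 66 at most 1 probe reached 2-fold by itself.

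**Figure D1:**
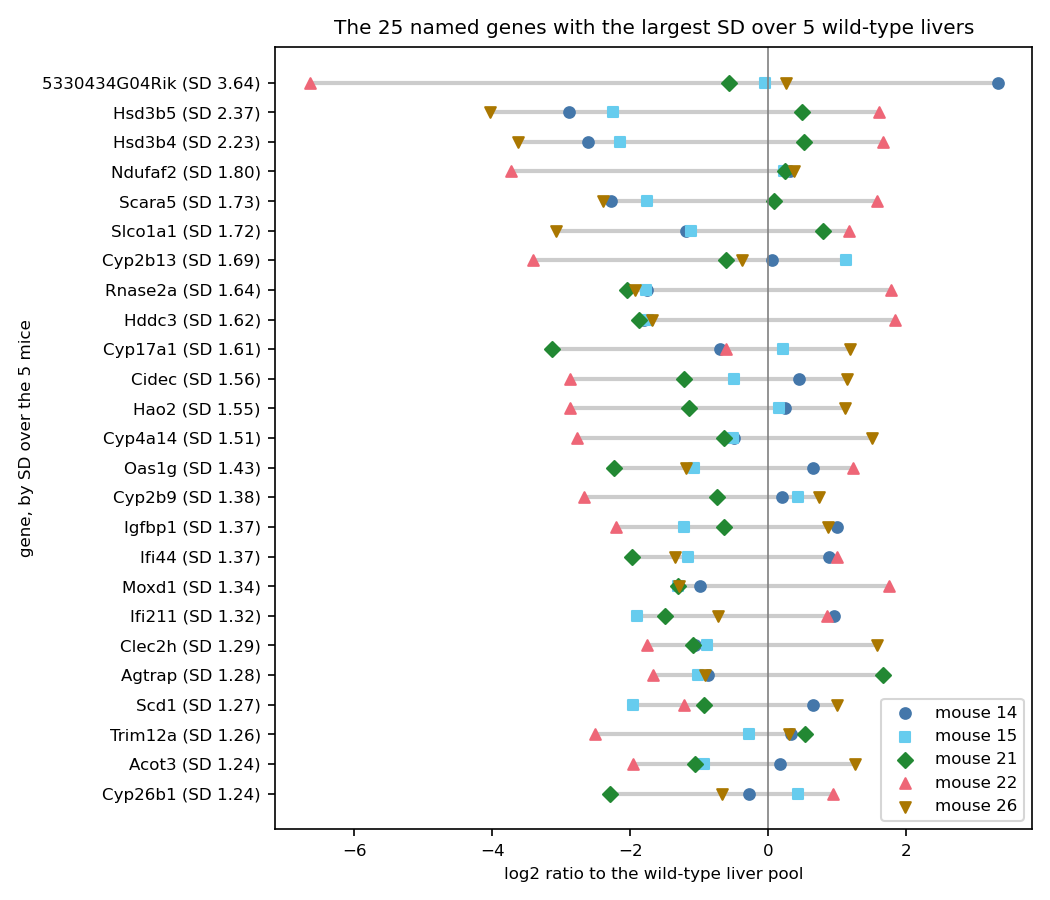
The 25 named genes with the largest SD over the 5 wild-type livers, with each mouse as a symbol on the log2 ratio to the pool and a grey bar from the lowest to the highest mouse. In Hsd3b5 the mice run from -4.03 to 1.61, whereas in Ndufaf2 4 mice lie together and mouse 22 lies apart at -3.72.

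The largest SD belonged to 5330434G04Rik, a locus without an assigned function on the X chromosome, at 3.64. Its ratio was 3.33 in mouse 14, -0.05 in mouse 15, -0.57 in mouse 21, -6.64 in mouse 22 and 0.26 in mouse 26. The value of mouse 22 is the lowest that the table holds, a log10 ratio of exactly -2, and its single probe gives no second reading. Next came Hsd3b5, a male-specific steroid reductase of mouse liver, with an SD of 2.37 (95% interval 1.42 to 6.82) and a range of 5.65 on the log2 scale. Its neighbour Hsd3b4 followed at 2.23 with nearly the same profile. The products of this family are similar in sequence, and whether their probes read both transcripts was not tested.

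The rest of the 25 were mixed in function. Besides the sex-biased genes described next, Cyp17a1, the steroid 17-alpha-hydroxylase, had an SD of 1.61. It was at -3.14 in mouse 21 and between -0.70 and 1.19 in the others. Cyp26b1, which breaks down retinoic acid, was likewise lowest in mouse 21, at -2.29, with an SD of 1.24. Scara5, a receptor for ferritin, had an SD of 1.73 and was high in mouse 22 (1.59), near 0 in mouse 21 (0.09) and low in mouse 26 (-2.39), mouse 14 (-2.28) and mouse 15 (-1.75). Agtrap, which binds the angiotensin receptor, stood high in mouse 21 alone at 1.66, with the other mice from -1.67 to -0.88. Clec2h, a C-type lectin, was at 1.58 in mouse 26 and from -1.75 to -0.89 in the rest.

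**Figure D2:**
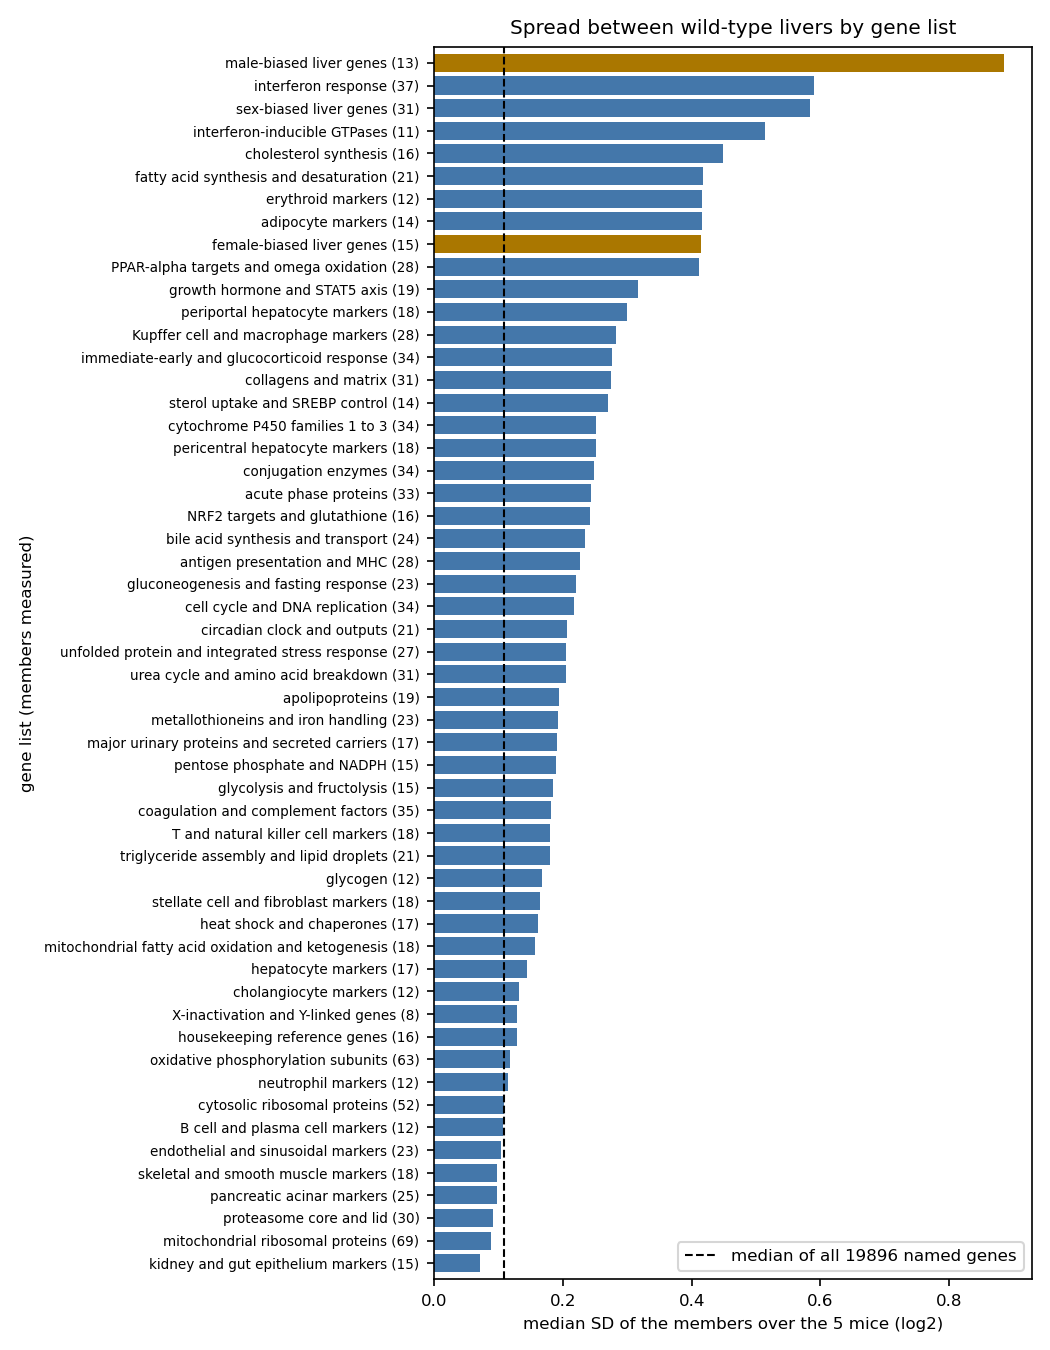
Median SD of the measured members of each gene list over the 5 wild-type livers, in log2 units, with the number of members in brackets and the median of all named genes as a dashed line. Orange bars are the male-biased and female-biased members of the sex-biased list. The interferon response list lies at 0.59, and ribosomal and proteasome genes lie near or below the dashed line.

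The lists covered 1145 of the named genes. They held 221 of the 880 varying genes and 60 of the 130 with at least a 4-fold range. In 44 of the 52 lists the median SD was above the 0.109 of all named genes. The 8 lists with the largest median SD were interferon response, sex-biased liver genes, interferon-inducible GTPases, cholesterol synthesis, fatty acid synthesis and desaturation, erythroid markers, adipocyte markers and PPAR-alpha targets with omega oxidation, and their medians ran from 0.41 to 0.59. These lists also hold genes known for responding to state, so the height of their spread describes these livers and is set apart by no test.

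Genes that differ between male and female mouse liver formed the second list by spread, with 18 of 31 measured members varying and a median SD of 0.58. Divided by their textbook direction, a division made after the values were seen, the 13 male-biased members had a median SD of 0.88 and the 15 female-biased members 0.41. The 3 members left out of the division were Lifr, Susd4 and Nudt7, of which Susd4 varied. All 13 male-biased members were highest in mouse 22, and 11 were lowest in mouse 26. With the sign of mouse 22 turned, none of the 13 was highest there and 7 were lowest there, 6 varied, and their median SD was 0.36. Their median log2 ratio was 1.05 in mouse 22, 0.03 in mouse 21, -0.20 in mouse 15, -0.48 in mouse 14 and -0.93 in mouse 26. Of the 15 female-biased members, 10 were lowest in mouse 22 and 8 were highest in mouse 26, whereas with mouse 22 turned 8 were highest in mouse 22. Their median was -0.77 in mouse 22, -0.23 in mouse 21 and 0.02 to 0.10 in mice 14, 15 and 26.

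Among the male-biased genes, Hsd3b5 measured -2.89 in mouse 14, -2.25 in mouse 15, 0.50 in mouse 21, 1.61 in mouse 22 and -4.03 in mouse 26. Slco1a1, an organic anion transporter of the sinusoidal membrane, measured -1.19, -1.11, 0.80, 1.18 and -3.08 in the same order of mice, a 19.1-fold range. Both genes thus set mice 21 and 22 above mice 14 and 15, with mouse 26 lowest. Ugt2b38, a glucuronosyltransferase, had an SD of 1.16 and was lowest in mouse 26 at -2.11. C8b, a chain of the complement factor C8, ran from -1.65 in mouse 26 to 1.34 in mouse 22, and Cyp7b1, the oxysterol 7-alpha-hydroxylase, from -1.57 to 1.12 in the same animals. Moxd1, a relative of dopamine beta-hydroxylase, followed another course: mouse 22 was at 1.75 and the other 4 mice lay between -1.30 and -0.99. Cyp2u1 had the smallest SD of the male-biased members at 0.11.

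Among the female-biased genes, Cyp2b13 measured 0.06 in mouse 14, 1.13 in mouse 15, -0.62 in mouse 21, -3.41 in mouse 22 and -0.37 in mouse 26, a 23.3-fold range. Cyp2b9, a P450 of the same subfamily and close in sequence, measured 0.21, 0.44, -0.74, -2.66 and 0.74. Hao2, a peroxisomal hydroxyacid oxidase, measured 0.24, 0.17, -1.15, -2.88 and 1.11. In all 3 of these genes mouse 22 was lowest and mouse 21 second lowest, which is the reverse of Hsd3b5 and Slco1a1 for those animals. Acot3, a peroxisomal acyl-CoA thioesterase that also belongs to the PPAR-alpha targets, was lowest in mouse 22 at -1.96 and highest in mouse 26 at 1.26. Ntrk2, a neurotrophin receptor, had the smallest SD at 0.06.

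Mouse 22 carried much of this spread. Without it the median SD was 0.36 for the male-biased and 0.32 for the female-biased members, and 5 members of each group still had a 2-fold range among the other 4 mice. The 8 measured genes of X inactivation and the Y chromosome did not separate the animals. None of the 8 varied, and their SD ran from 0.04 in Zfy2 to 0.23 in Eif2s3y, a Y-linked translation factor. Xist, the RNA of the inactive X chromosome, lay between -0.07 and 0.36. The sex of the mice is not given in the sources used here.

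The growth hormone axis, which sets the sex-biased genes, varied in 6 of 19 measured members with a median SD of 0.32, and in those members the mice did not share 1 order. Cish, a feedback inhibitor that STAT5 induces, was at 1.47 in mouse 15 and at -0.99, -1.32, -1.17 and -0.17 in mice 14, 21, 22 and 26. Bcl6, a repressor that opposes STAT5 at female-biased genes, was highest in mouse 21 at 0.95 and lowest in mouse 15 at -1.33. Onecut1, a hepatocyte transcription factor, was highest in mouse 15 (0.84) and lowest in mouse 14 (-1.15). Egfr, the receptor of epidermal growth factor and itself male-biased in mouse liver, followed the male-biased genes, at 0.93 in mouse 22 and 0.48 in mouse 21 against -0.72 to -0.89 in mice 14, 15 and 26. Igfbp1, a binding protein of insulin-like growth factors that insulin represses, measured 1.002 in mouse 14, -1.22 in mouse 15, -0.65 in mouse 21, -2.20 in mouse 22 and 0.86 in mouse 26. Esr1, the oestrogen receptor alpha, had the smallest SD of the list at 0.07.

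**Figure D3:**
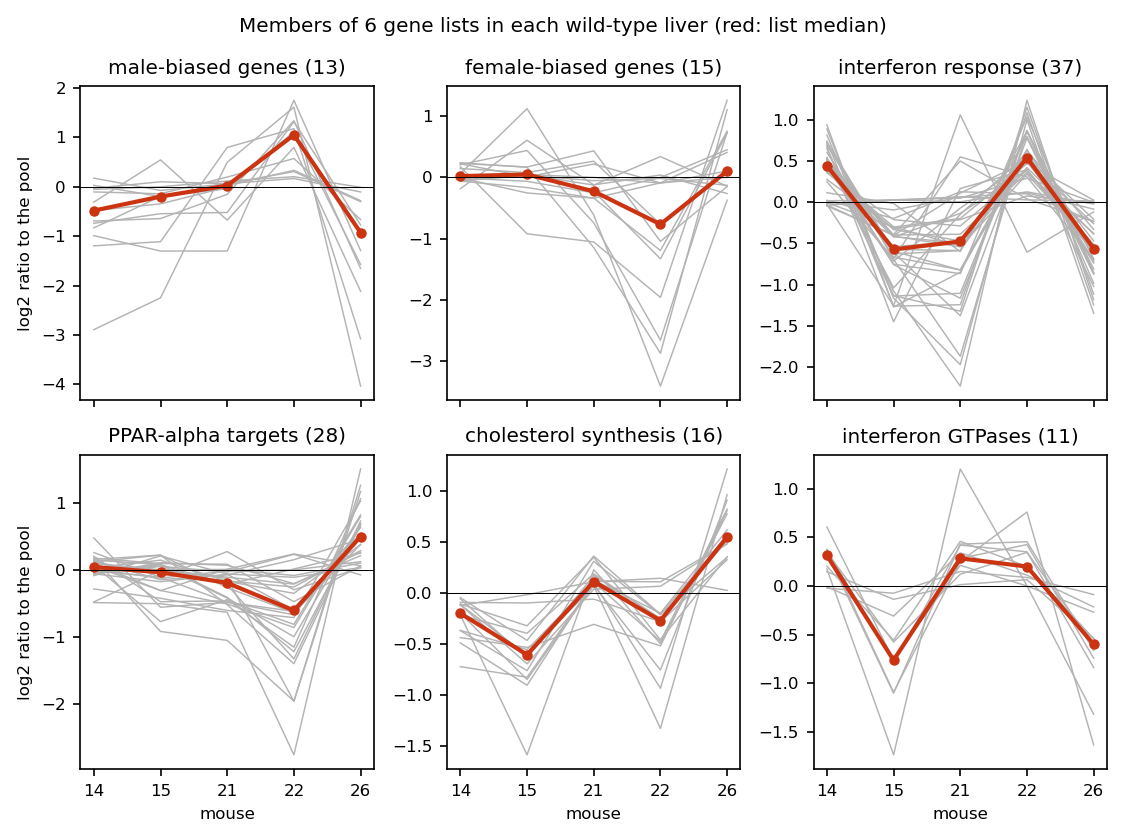
Log2 ratio to the pool of each measured member (grey lines) of 6 gene lists in the 5 wild-type mice, with the list median in red and the number of members in brackets; the lines only join values of 1 gene, since the mice have no order. Interferon response genes are high in mice 14 and 22, PPAR-alpha targets and sterol genes are highest in mouse 26, and the male-biased genes peak in mouse 22.

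Antiviral genes as deposited split the 5 livers into a high pair, mice 14 and 22, and a low trio. Of 37 measured interferon response genes 24 varied (64.9%), with a median SD of 0.59, which was the largest of the 52 lists. The list median was 0.44 in mouse 14 and 0.54 in mouse 22, against -0.57 in mouse 15, -0.48 in mouse 21 and -0.56 in mouse 26. In mouse 22, 36 of 37 members lay above the pool and in mouse 14 31 did, while in mice 15, 21 and 26 it was 3, 10 and 2. With the sign of mouse 22 turned its median was -0.54, which left mouse 14 as the only high animal, and 22 members varied. The mean profile of the list held 58.3% of the sum of squares of its members, against 1.63% for the varying genes as a whole. Without mouse 22 the median SD was 0.51 and 20 members varied.

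The promoters of 3 of these genes are shown because they carry the short repeat by which interferon-activated factors are known to bind DNA, and that of Hmgcs1, a sterol gene described further on, because it carries the element recognised by SREBP. Each runs 5′ to 3′ along the gene from 250 bases before to 50 bases after the RefSeq start on the mouse assembly GRCm38.p6, and capitals mark the matches. The interferon motif was GAAANNGAAA on either strand, where overlapping matches were counted singly, and the sterol motif was TCACNCCAC on either strand.
Oas1g (chr5:120887564-120887863, minus strand): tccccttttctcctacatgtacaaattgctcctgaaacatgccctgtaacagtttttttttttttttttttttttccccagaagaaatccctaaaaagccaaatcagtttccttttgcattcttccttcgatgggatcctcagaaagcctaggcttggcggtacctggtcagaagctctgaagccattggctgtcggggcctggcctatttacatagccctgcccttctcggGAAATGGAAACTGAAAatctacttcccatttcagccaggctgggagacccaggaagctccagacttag
Ifit1 (chr19:34640639-34640938, plus strand): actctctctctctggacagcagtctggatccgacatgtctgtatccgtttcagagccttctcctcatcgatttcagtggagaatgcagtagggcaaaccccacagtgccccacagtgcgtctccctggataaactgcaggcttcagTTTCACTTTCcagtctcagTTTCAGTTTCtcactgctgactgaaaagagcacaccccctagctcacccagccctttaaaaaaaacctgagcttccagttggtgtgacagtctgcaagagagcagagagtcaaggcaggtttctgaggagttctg
Isg15 (chr4:156200769-156201068, minus strand): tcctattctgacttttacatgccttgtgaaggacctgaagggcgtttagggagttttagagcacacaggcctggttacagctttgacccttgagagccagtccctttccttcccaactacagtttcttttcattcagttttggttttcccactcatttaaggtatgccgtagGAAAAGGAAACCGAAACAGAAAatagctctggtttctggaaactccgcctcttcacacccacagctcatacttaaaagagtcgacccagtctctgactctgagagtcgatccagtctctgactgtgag
Hmgcs1 (chr13:119690101-119690400, plus strand): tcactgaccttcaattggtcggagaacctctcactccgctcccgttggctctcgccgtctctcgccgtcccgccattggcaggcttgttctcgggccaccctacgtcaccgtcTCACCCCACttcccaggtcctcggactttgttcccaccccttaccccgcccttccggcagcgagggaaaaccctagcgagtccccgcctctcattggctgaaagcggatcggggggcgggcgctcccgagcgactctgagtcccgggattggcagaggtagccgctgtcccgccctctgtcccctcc

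Oas1g held 2 overlapping matches, Ifit1 2 separate ones and Isg15 3 overlapping ones, while Hmgcs1 held 1 sterol match. A RefSeq promoter was at hand for 27 of the 37 interferon response genes, and 14 of these (51.9%) had a match. Among all 27025 genes with a RefSeq promoter, 1079 (3.99%) had one. Among the 17 varying members with a promoter 8 had a match. The list was chosen for its response to interferon, so a higher share than in all genes follows from the choice, and the matches say nothing of which factor was bound in these livers.

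The genes behind the list are effectors and sensors of antiviral defence. Oas1g, a 2′-5′ oligoadenylate synthetase that activates RNA decay, measured 0.65 in mouse 14, -1.08 in mouse 15, -2.23 in mouse 21, 1.24 in mouse 22 and -1.18 in mouse 26, an 11.1-fold range. Both of its probes named the same highest and lowest mouse, with ranges of 3.46 and 3.48 on the log2 scale. Ifit1, which binds viral RNA lacking host caps, measured 0.74, -1.26, -1.25, 1.09 and -1.25, so that the 3 low mice lay within 0.02 of each other. Ifi44 measured 0.89, -1.17, -1.97, 0.999 and -1.35. Irf7, the transcription factor that amplifies the interferon response, measured 0.54, -1.14, -1.32, 1.15 and -1.12. In these 4 genes mice 14 and 22 lay above the pool and the other 3 below it, without overlap. Isg15, a ubiquitin-like modifier, had an SD of 0.89 and the same division, at 0.46 and 1.03 against -0.87 to -0.75. Ddx58, which encodes the RNA sensor RIG-I, had the smallest SD of the list at 0.04.

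Genes that answer mainly to interferon gamma divided the mice in another way. Of 11 measured interferon-inducible GTPases, proteins that attack vacuoles holding microbes, 7 varied with a median SD of 0.51. All 11 lay above the pool in mice 21 and 22 and all 11 below it in mice 15 and 26, with list medians of 0.28, 0.20, -0.76 and -0.60, while mouse 14 was at 0.31. With the sign of mouse 22 turned its median was -0.20, none of the 11 lay above the pool there, and 7 varied. Tgtp1 measured 0.18 in mouse 14, -1.73 in mouse 15, 1.20 in mouse 21, 0.00 in mouse 22 and -1.32 in mouse 26. Igtp measured 0.34, -1.10, 0.43, 0.45 and -0.66. Mouse 21, low for Oas1g, Ifi44 and Ifit1, was thus among the high mice for the GTPases. The T-cell chemokine Cxcl9 was highest in mouse 21 (1.06) and lowest in mouse 15 (-1.26), and Cxcl10, induced by both interferon types, was highest in mouse 14 (0.67) and lowest in mouse 15 (-1.45). Without mouse 22 the same number of GTPases varied, with a median SD of 0.59.

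Antigen presentation varied less, in 6 of 28 members. Its class II genes, which mark dendritic cells, macrophages and B cells, sided with mouse 21: H2-Aa measured 0.79 there, 0.25 in mouse 26 and -0.16 in mouse 14, and was lowest in mice 15 and 22 at -0.57 and -0.69. H2-Eb1, H2-Ab1 and Cd74 were also highest in mouse 21 and lowest in mouse 22. Without mouse 21 only 2 members of the list varied, and without mouse 22 or with arrays scaled to equal width 3 did. The immunoproteasome subunits Psmb8 and Psmb9 were highest in mouse 22, at 0.70 and 0.55, and lowest in mouse 26. H2-DMb1 had the smallest SD at 0.02.

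Markers of immune cells moved with these genes in part. Of 28 Kupffer cell and macrophage markers 6 varied. The list medians were 0.14 in mouse 14 and 0.17 in mouse 22 against -0.20, -0.10 and -0.19 in mice 15, 21 and 26. These medians divided the mice as the antiviral genes did, at a smaller size. Single members shared it less: their mean profile held 12.9% of the sum of squares, against 58.3% for the interferon response. In mice 14 and 22 alike 18 of the 28 lay above the pool, and in mice 15, 21 and 26 it was 9, 10 and 8. Fcgr1, an Fc receptor that interferon also induces, measured 0.59 and 0.64 in mice 14 and 22 and -0.81 to -0.51 in the others, and Clec4f, a lectin of Kupffer cells, 0.17 and 0.69 against -0.52 to -0.22. Ccr2, the receptor that recruits monocytes, went its own way with 0.75 in mouse 26 and -1.49 in mouse 22. T and natural killer cell markers varied in 3 of 18 members, among them Ccl5 with 0.42 in mouse 26 and -0.78 in mouse 22. None of 12 neutrophil markers and none of 12 B cell and plasma cell markers varied, compared with 2 and 1 when arrays were scaled to equal width. In whole liver, fewer cells of a type and less RNA per cell cannot be told apart, and the part of cell numbers in the antiviral genes was not tested. Without mouse 22 or without mouse 26 the number of varying macrophage markers was 3, and without mouse 22 or with scaled arrays no T or natural killer cell marker varied.

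Cholesterol synthesis was the most uniform of the metabolic lists with a wide spread. Of 16 measured enzymes 11 varied (68.8%), with a median SD of 0.45, and the mean profile held 71.8% of their sum of squares. In 14 of the 16 mouse 26 was highest and in 11 mouse 15 was lowest, and all 16 lay above the pool in mouse 26 and below it in mouse 15. In mouse 14 none of the 16 lay above the pool either, while 3 did in mouse 22 and 14 in mouse 21. The medians were -0.20, -0.60, 0.11, -0.27 and 0.55 in mice 14, 15, 21, 22 and 26. Hmgcs1, which makes the HMG-CoA from which sterols are built, measured -0.20, -0.60, 0.07, -1.33 and 0.97 in that order, and both of its probes had a range of at least 2.28 on the log2 scale. Idi1, the isomerase of the isoprene unit, measured -0.72, -0.83, 0.10, -0.93 and 1.22. Fdps, which joins isoprene units to farnesyl diphosphate, measured -0.21, -1.59, 0.23, -0.50 and 0.78. Mouse 26 was highest in each of these 3 genes, but the lowest was mouse 22 in Hmgcs1 and Idi1 and mouse 15 in Fdps. Ebp, a sterol isomerase, had the smallest SD at 0.11. Without mouse 26 5 enzymes varied, and without mouse 15 6 did.

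A promoter entry was at hand for 13 of the 16 sterol enzymes. The sterol motif was found in that of Hmgcs1 alone, at 137 bases before the start, compared with 388 of 27025 genes (1.44%). For the other 12 the letters are not in this window, from which nothing follows about SREBP. Genes of sterol uptake and SREBP control differed less than the enzymes: 1 of 14 varied, with a median SD of 0.27. That gene was Insig1, which holds SREBP in the endoplasmic reticulum, with 0.54 in mouse 21 and -0.59 in mouse 15, and without mouse 15 or without mouse 21 it no longer varied. Srebf1, which encodes the SREBP that drives fatty acid genes, was lowest in mouse 26 (-0.54) and highest in mouse 22 (0.39). Npc1l1, a sterol transporter, had an SD of 0.04.

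Fatty acid synthesis and desaturation also put mouse 15 lowest, in 11 of 21 members, while the highest was mouse 26 in 8 members, mouse 22 in 7 and mouse 14 in 5. Of the 21, 11 varied with a median SD of 0.42. Scd1, the delta-9 desaturase, measured 0.65 in mouse 14, -1.96 in mouse 15, -0.92 in mouse 21, -1.22 in mouse 22 and 1.01 in mouse 26. Elovl6, an elongase of saturated fatty acids, measured 0.45, -1.17, -0.08, -0.65 and 0.73, and Elovl5, an elongase of unsaturated ones, 0.41, -0.92, -0.13, -0.94 and 0.73. In these 3 genes mice 14 and 26 lay above the pool and the other mice below it. Fasn, the fatty acid synthase, set mouse 15 apart at -1.12 with the others from 0.07 to 0.33. Pnpla3, a lipase of lipid droplets that SREBP-1c induces, was high in mouse 14 alone, at 1.50, with the others from -1.26 to -0.74. Acaca, the acetyl-CoA carboxylase of the cytosol, had the smallest SD at 0.15. Without mouse 15 the median SD was 0.27.

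Me1 itself, which supplies NADPH for this pathway, had an SD of 1.07 (95% interval 0.64 to 3.07), above that of 99.8% of all named genes. Its single probe ran from -1.73 in mouse 22 to 0.82 in mouse 14, with mouse 26 near the top, a 5.85-fold range among animals that all carry the gene. Among the genes with at least a 4-fold range it fell into the same cluster as Scd1, Cidec, Igfbp1, Cyp4a14 and Hmgcs1. Other suppliers of NADPH varied less: of 15 measured genes of the pentose phosphate pathway and NADPH supply, Me1 included, only Me1 reached a 2-fold range. Pgd, the 6-phosphogluconate dehydrogenase, was next with an SD of 0.31, at 0.28 in mouse 14 and 0.33 in mouse 26 against -0.35 to -0.12 in the others.

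Glycolysis and fructolysis varied in 2 of 15 members, and these went with the lipogenic genes. Pklr, the liver pyruvate kinase, measured 0.64 in mouse 14 and -0.63 in mouse 15, and Tkfc, an enzyme of fructose breakdown, 0.50 and -0.64. Without mouse 14 neither of them varied, and without mouse 15 1 did. Ppp1r3g, a subunit that directs a phosphatase to glycogen after feeding, had a 6.37-fold range with 0.71 in mouse 14, 0.67 in mouse 21 and -1.96 in mouse 15. None of the 12 listed glycogen genes varied. In the fasting response 5 of 23 members varied, and 3 did without mouse 14, without mouse 22 or with arrays scaled to equal width. After Igfbp1 the largest SDs were those of Lepr, the leptin receptor, lowest in mouse 22 at -0.89, and of G6pc, the glucose-6-phosphatase, and Sik1, a kinase that cAMP induces, both at 0.70 in mouse 14 and below the pool in every other mouse.

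PPAR-alpha targets spanned the livers from mouse 26 down to mouse 22. Of 28 measured members 15 varied (53.6%) with a median SD of 0.41, 23 were highest in mouse 26 and 23 were lowest in mouse 22. With the sign of mouse 22 turned, 15 were highest in mouse 22 and 11 in mouse 26. The list medians were 0.04, -0.04, -0.20, -0.61 and 0.50 in mice 14, 15, 21, 22 and 26. Cyp4a14, an omega-hydroxylase of fatty acids, measured -0.49, -0.51, -0.64, -2.77 and 1.51, a 19.3-fold range. Cyp4a10, of the same family, measured -0.48, -0.01, -0.13, -1.96 and 1.17. Fgf21, a hormone that the fasted liver releases, measured 0.07, -0.78, -0.45, -1.16 and 1.06. The 3 middle mice lay close together for Cyp4a14 and Cyp4a10, with mice 22 and 26 at opposite ends. Vnn1, a pantetheinase, and Cd36, a fatty acid transporter, had the same lowest and highest mouse. Fabp1, the abundant fatty acid carrier of liver, had the smallest SD at 0.07. Without mouse 26 the median SD was 0.28 and 10 members varied, and without mouse 22 it was 0.30 and 12 did.

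Mitochondrial fatty acid oxidation and ketogenesis leaned the same way at a smaller size. Mouse 26 was highest in 15 of 18 members and mouse 22 lowest in 13, and the mean profile held 61.9% of their sum of squares, but the median SD was 0.16. Acadm, the medium-chain acyl-CoA dehydrogenase, was the only member to vary, from -0.70 in mouse 22 to 0.34 in mouse 26, and it no longer did without either of these mice, with the median of probes, with scaled or quantile-normalized arrays, or among symbols with 1 probe. Echs1, an enoyl-CoA hydratase, had an SD of 0.02.

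Genes of lipid droplets and triglyceride assembly varied in 6 of 21 members. Cidec, a protein of the CIDE family that fuses lipid droplets, measured 0.45 in mouse 14, -0.49 in mouse 15, -1.22 in mouse 21, -2.87 in mouse 22 and 1.15 in mouse 26, a 16.2-fold range. Its relative Cidea measured 0.27, -0.94, -0.28, -1.67 and 0.94. Mogat1, a monoacylglycerol acyltransferase, measured 0.28, -0.29, -0.49, -1.36 and 0.89. Each of the 3 was highest in mouse 26, next in mouse 14, and lowest in mouse 22. Plin2, which coats droplets, ran from -0.76 in mouse 22 to 0.88 in mouse 26. Cidec and Cidea are also adipocyte genes, and of 14 adipocyte markers 6 varied. Plin1, the perilipin of fat cells, had an SD of 0.08 and Cfd, the adipsin gene, was highest in mouse 21 at 0.73 and lowest in mouse 15 at -1.08, so that the markers did not share 1 profile.

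Collagen chains followed the same pair of animals. Of 31 collagen and matrix genes 9 varied with a median SD of 0.27, 25 were lowest in mouse 22 and 20 were highest in mouse 26. Col1a1 measured 0.29 in mouse 14, -0.02 in mouse 15, -0.85 in mouse 21, -1.66 in mouse 22 and 0.93 in mouse 26, and both of its probes had a range of at least 2.43. Col3a1 measured 0.31, -0.03, -0.54, -1.19 and 0.73, and Col1a2 0.21, 0.06, -0.46, -0.82 and 0.56, so that the 3 chains of fibrillar collagen ordered the mice alike. Their order, 26, 14, 15, 21, 22 from high to low, was held by 95 of the 880 varying genes (10.8%). Col6a2 was a contrary member, highest in mouse 22 at 0.62, with the mouse order discussed at the end. Stellate cell and fibroblast markers other than collagens moved less: Pdgfrb, a receptor of these cells, was lowest in mouse 22 at -0.80, Dcn, a proteoglycan, was lowest there at -0.50 and Ngfr had an SD of 0.05. Spp1, which encodes osteopontin, measured 1.07 in mouse 26 and -0.99 in mouse 22 with the other mice from -0.40 to -0.37. Without mouse 22 3 collagen and matrix genes varied, and with its sign turned 4 did, with 21 of the 31 highest there.

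Endothelial markers as a list lay near all named genes, with a median SD of 0.10 against 0.109. Of 23 members 1 varied (4.35%), against 4.42% of all named genes. That gene was Lyve1, a hyaluronan receptor of sinusoidal endothelium, with 0.50 in mouse 14, 0.49 in mouse 26 and 0.07 in mouse 15 against -0.75 in mouse 21 and -0.90 in mouse 22. Erythroid markers had a median SD of 0.42, and 6 of 12 varied. Alas2, the haem synthesis enzyme of red cells, measured 1.30 in mouse 22 and -0.84 to -0.57 in the others. The globin genes Hbb-b2 and Hbb-b1 measured 1.15 and 0.94 in mouse 22, 0.00 and 0.24 in mouse 26, and -0.81 to -0.50 in mice 14, 15 and 21. Tfrc, the transferrin receptor, ran the other way and was lowest in mouse 22 at -1.05. Without mouse 22 the median SD of the list was 0.25 and 3 members varied. With the sign of mouse 22 turned, 2 members in place of 9 were highest there, 8 were highest in mouse 26, and 5 varied. The amount of blood in each sample is not given in the sources used here.

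**Figure D4:**
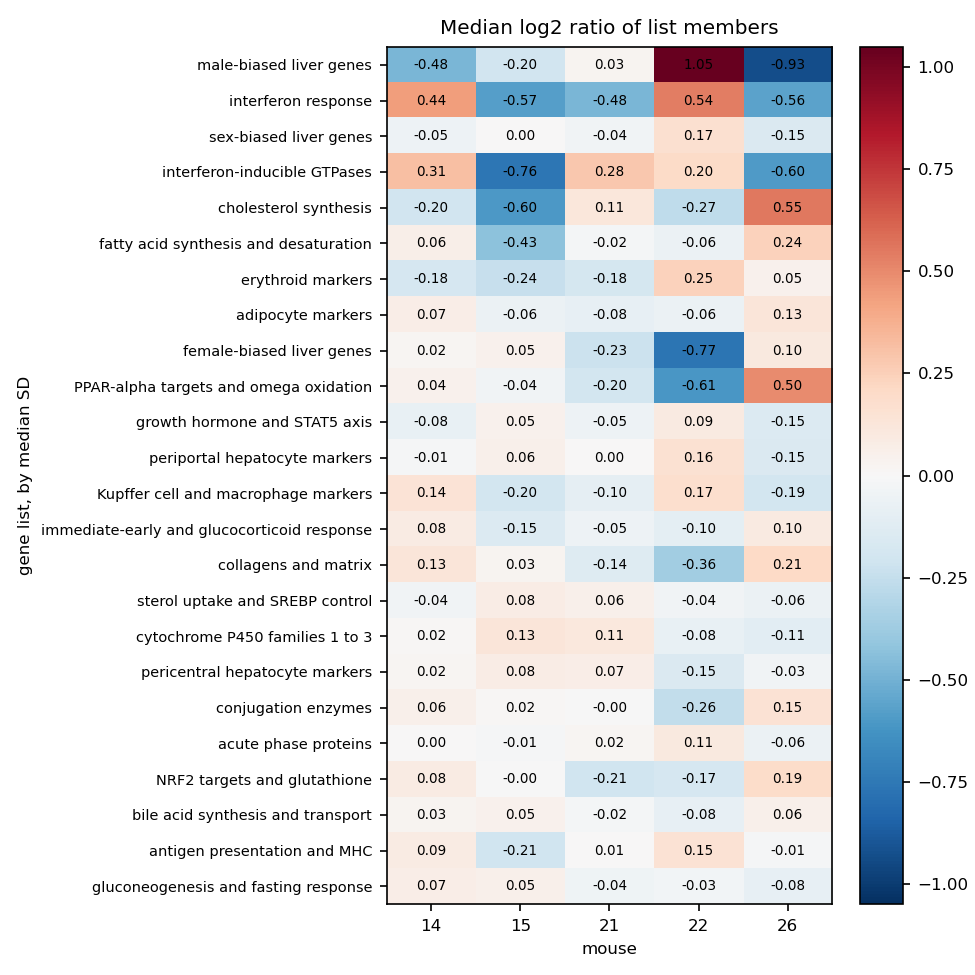
Median log2 ratio to the pool of the members of each list whose median SD was at least 2 times that of all named genes, by mouse, with rows in order of the median SD. Red is above and blue below the pool; mouse 22 holds the highest median for male-biased genes and the lowest for female-biased genes, PPAR-alpha targets and collagens.

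Drug-metabolising enzymes were mixed in direction. Of 34 P450 genes of families 1 to 3, 12 varied, and of 34 conjugation enzymes also 12, with median SDs of 0.25 in both. Besides Cyp2b13 and Cyp2b9, Cyp2c70, which makes muricholic acids in mice, ran from -1.18 in mouse 26 to 0.82 in mouse 22. Cyp1a2, a pericentral enzyme, was also lowest in mouse 26 at -1.07 and highest in mouse 15 at 0.52, whereas Cyp2f2, a periportal one, was lowest in mouse 21 at -1.19. Glutathione transferases gave the widest values of conjugation: Gsta1 measured 0.42, -0.70, -1.05, -2.02 and 1.13 and Gstm3 0.68, -1.14, -1.03, -1.60 and 0.9996 in mice 14, 15, 21, 22 and 26. Gstp1, male-biased in mouse liver, went the other way with 1.05 in mouse 22 and -0.93 in mouse 26. Of all 34 conjugation enzymes 24 were lowest in mouse 22 and 17 highest in mouse 26, and without mouse 22 5 varied. Sult2a1, a sulfotransferase, had an SD of 0.07. NRF2 targets shared that direction, with Cbr3, a carbonyl reductase, at 0.76 in mouse 26 and -1.10 in mouse 22, and 2 of 16 members varied (1 without mouse 22, without mouse 26, or with scaled or quantile-normalized arrays).

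Bile acid genes varied in 7 of 24 members. Slco1a4, a transporter that is female-biased in mouse liver, was lowest in mouse 22 at -1.80 with the others from -0.28 to 0.55, and Abcc2, the canalicular exporter of conjugates, was lowest in mouse 21 at -1.36. Cyp8b1, which makes cholic acid, was high in mouse 26 (0.73) and mouse 14 (0.32) and lay between -0.65 and -0.47 in mice 15, 21 and 22. Slc51a, of the basolateral bile acid exporter, had an SD of 0.05. Among apolipoproteins 5 of 19 varied. Apoa4 was lowest in mouse 21 at -1.86 and highest in mouse 26 at 0.92. Apoe measured 1.88 in mouse 15 and 1.40 in mouse 21 but between -0.08 and 0.07 in the other 3, from a single probe. Apoa2 had an SD of 0.04.

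Coagulation and complement factors, secreted by hepatocytes, ran largely from mouse 22 at the top to mouse 26 at the bottom, with small sizes. Of 35 coagulation and complement factors 22 were highest in mouse 22 and 25 lowest in mouse 26, and 6 varied (3 after quantile normalization). After C8b the widest were C6 and C8a, both parts of the membrane attack complex, from -1.15 and -1.23 in mouse 26 to 0.91 and 0.73 in mouse 22. C1s1 had an SD of 0.04. Among major urinary proteins and carriers 5 of 17 varied. Serpina1d, an alpha-1-antitrypsin gene, set mouse 22 apart at 2.12 with the others from -0.09 to 0.02, while Serpina7, the thyroxine-binding globulin, set the same mouse apart at the low end, at -1.59. Mup5 was low in mouse 26 at -1.50. Alb, the albumin gene, had an SD of 0.03. Genes of the Mup, serpin and P450 families have near-identical copies, and which copy a probe reads was not tested. Without mouse 22 or without mouse 26 2 members of that list varied.

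Stress genes shared no single profile. Of 34 immediate-early and glucocorticoid-responsive genes 12 varied: Gadd45g, a growth arrest gene, from 1.05 in mouse 14 to -1.48 in mouse 21, Egr1 and Egr2, early transcription factors, both lowest in mouse 22 and highest in mouse 26, and Nr4a1, an orphan receptor, highest in mouse 14 at 0.92. Tsc22d3, a direct glucocorticoid target, was highest in mouse 22 at 0.71 and lowest in mouse 26 at -0.93. Without mouse 22 or without mouse 26 7 varied. The metallothioneins Mt2 and Mt1, which bind zinc, were highest in mouse 26 at 0.98 and 0.85 and lowest in mouse 22 at -1.17 and -0.69. Hamp2, a second hepcidin gene, was highest in mouse 15 at 0.95 and lowest in mouse 22 at -1.84. Among chaperones 2 of 17 varied, both highest in mouse 22 and neither varying without it: Hspa1a, an inducible HSP70, at 1.02 and Dnajb1, its co-chaperone, at 0.67. Acute phase proteins varied in 6 of 33 members, headed by Mt2, and in 2 without mouse 22 or without mouse 26. Lbp, which binds lipopolysaccharide, had an SD of 0.05.

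Of 27 genes of the unfolded protein and integrated stress responses 5 varied, among them Creld2, an endoplasmic reticulum protein, highest in mouse 22 at 0.91, and Ddit4, an inhibitor of mTOR signalling, from -0.88 in mouse 15 to 0.67 in mouse 14. Without mouse 15 2 of them varied, and without mouse 22 3 did. Clock genes differed little: 2 of 21 varied, namely Upp2, a uridine phosphorylase under clock control, from -0.76 in mouse 26 to 0.55 in mouse 22, and Per2, from -0.57 in mouse 14 to 0.45 in mouse 22. Neither varied without mouse 22 or after quantile normalization, and 1 did without mouse 14 or without mouse 26. Cell cycle genes varied in 3 of 34 members but leaned 1 way, with 23 highest in mouse 26. Without mouse 26 1 member varied. Mki67, a marker of dividing cells, measured 0.69 in mouse 26, 0.12 in mouse 14 and -0.49 to -0.29 in the others. Amino acid breakdown and the urea cycle varied in 5 of 31 members, with Cth, the cystathionine gamma-lyase, at -1.36 and -1.01 in mice 26 and 22 and at 0.40 to 0.61 in the others. Without mouse 22 or without mouse 26 2 of these varied, and with scaled arrays 3 did.

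Lists of the basic machinery lay near or below the spread of all named genes, whose median SD was 0.109 and of which 4.42% varied. None of 52 cytosolic ribosomal protein genes, 69 mitochondrial ribosomal protein genes, 63 subunits of oxidative phosphorylation or 30 proteasome subunits varied, and the median SDs of these lists were 0.11, 0.09, 0.12 and 0.09. The widest single members were Rpl29 (0.39), Ndufa8 (0.34), Psmc6 (0.29) and Mrpl1 (0.21). Of 16 housekeeping reference genes only Tfrc varied, and not without mouse 22; Hprt had an SD of 0.14, Ppia of 0.15, Pgk1 of 0.14 and Ipo8 of 0.03. Markers of kidney and gut, muscle and pancreas, tissues that a liver sample could carry along, had median SDs of 0.07, 0.10 and 0.10. Within them 1 of 15, 0 of 18 and 3 of 25 varied: Lct, the lactase gene, was highest in mouse 22 at 1.27, and the pancreatic Cela1, Pnliprp1 and Pnlip were highest there too, while Amy2a5, a pancreatic amylase, had an SD of 0.05. Without mouse 22 none of the kidney and gut and 1 of the pancreatic markers varied. A gene with little RNA in liver can give a ratio near 0 on such arrays, so a small SD here does not separate a steady gene from an unexpressed one. Spot brightness was not used, so a large SD does not show that a gene was expressed either.

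Across all named genes the main axis of variation set mouse 22 against mouse 26. The first principal component of the centred values held 60.6% of the sum of squares, with mouse 22 at 0.83 and mouse 26 at -0.49. It held 48.9% with the sign of mouse 22 turned and 55.3% with that of mouse 26 turned. Its upper end was led by Hsd3b5, Hsd3b4, Rnase2a, Scara5 and Hddc3 and its lower end by 5330434G04Rik, Ndufaf2, Cidec, Hao2 and Cyp4a14. The second held 17.8% and set mice 15 and 21 (0.57 and 0.50) against mice 26 and 22 (-0.52 and -0.32), with Apoe and Xlr3a at its upper end and Ifi211 and Scd1 at its lower. The third held 12.5% and set mouse 21 (0.74) against mouse 15 (-0.67), with Hsd3b5, Hsd3b4, Tgtp1, Agtrap and Ppp1r3g against Cyp17a1, Cish and Cyp26b1. The fourth held 9.14% and set mouse 14 (0.82) against mouse 26 (-0.54). When the arrays were scaled to the same width, the first component held 42.1%.

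**Figure D5:**
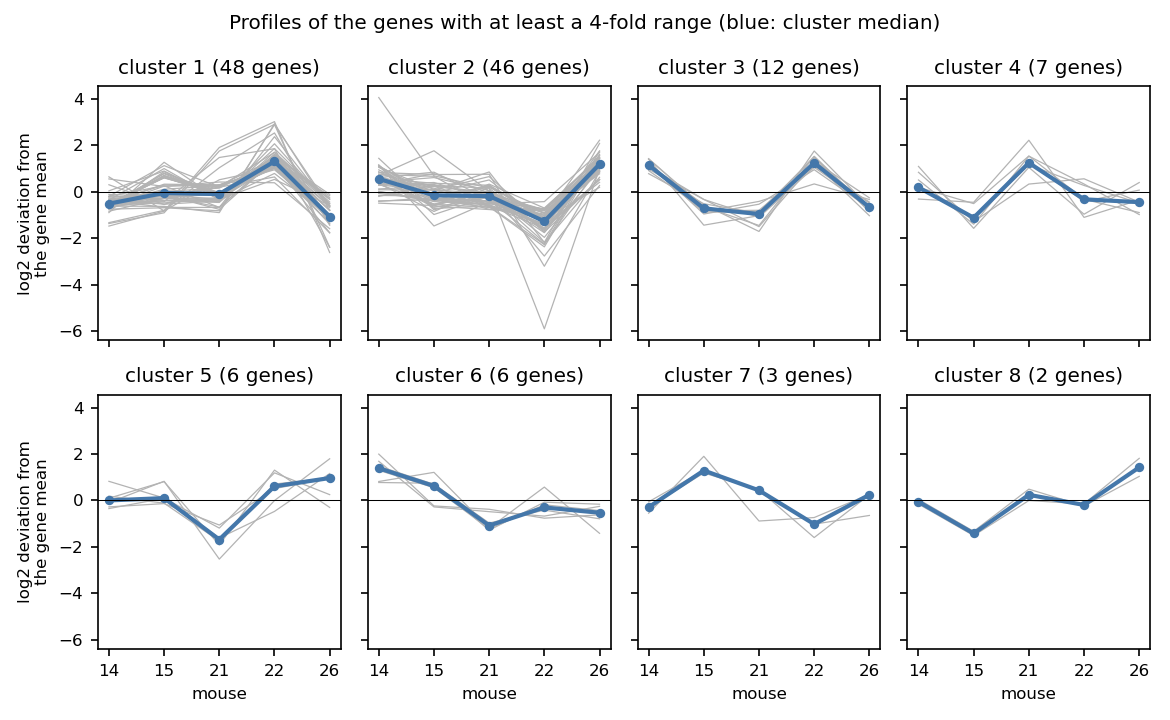
Profiles over the 5 wild-type mice of the 130 genes with at least a 4-fold range, as the log2 deviation from each gene's mean, in 8 clusters (grey lines are genes, the blue line is the median). Clusters 1 and 2 mirror each other in mice 22 and 26, and cluster 3, the antiviral genes, is high in mice 14 and 22.

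The 130 genes with at least a 4-fold range formed 8 clusters by the shape of their profiles, a grouping of the same values that is given as a description. Cluster 1, of 48 genes, was high in mouse 22 and low in mouse 26 and held Hsd3b5, Hsd3b4, Scara5, Slco1a1 and Rnase2a. Cluster 1 also held many genes of the single mouse order set out below, such as Olfr403, L1td1, Lcn12, Sun2 and Cyp2c70. Cluster 2, of 46 genes, was its mirror and held 5330434G04Rik, Ndufaf2, Cyp2b13, Cidec and Hao2, together with Me1, Scd1, Fgf21 and Col1a1. Cluster 3 had 12 genes, which were high in mice 14 and 22, and its mean profile held 92.0% of their sum of squares. Its widest were Oas1g, Ifi44, Ifi211, Ly6a and Ifit1, all known as interferon-induced. Cluster 4 had 7 genes, high in mouse 21 and low in mouse 15, and joined Tgtp1, Cxcl9 and Cxcl10 with Agtrap, Ppp1r3g and Bcl6.

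The small clusters turned on single animals. Cluster 5 had 6 genes that were low in mouse 21, with Cyp17a1, Cyp26b1, Apoa4 and As3mt, the arsenic methyltransferase. Cluster 6 had 6 genes that were high in mouse 14, with Pnpla3, B4galnt1, a ganglioside synthase, and Gadd45g. Cluster 7 had 3, Cish, Hamp2 and Xlr3a, that were high in mouse 15, and cluster 8 had 2, Nipal1, a magnesium transporter, and Fdps, that were high in mouse 26 and low in mouse 15. Nipal1 measured -1.97 in mouse 15 and 1.36 in mouse 26, and both of its probes gave at least 3.19 on the log2 scale.

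A part of the varying genes followed a single order of the mice so closely that it is set out separately. The order 22, 15, 21, 14, 26 from high to low was held by 166 of the 880 varying genes (18.9%) and by 5.42% of all named genes. Their medians were 0.66, 0.32, -0.20, -0.45 and -0.70 in that order, and the mean profile held 90.9% of their sum of squares. Only 6 of the 166 belonged to the lists, namely Prodh, Cyp2c70, Il1r1, Mup2, Mup4 and Col6a2. Examples of the others, chosen after their values were seen are Olfr403, an odorant receptor gene, L1td1, an RNA-binding protein gene of germ cells, Lcn12, a lipocalin of the epididymis, and Sun2, a protein of the nuclear envelope. Olfr403 measured 0.96, 0.54, -0.31, -0.88 and -1.66 in mice 22, 15, 21, 14 and 26, and Sun2 measured 0.96, 0.45, -0.33, -0.73 and -1.26.

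Odorant, taste and vomeronasal receptor genes, which have no known role in hepatocytes, supplied 15 of these 166, out of 42 varying among 1232 such genes (3.41%, against 4.42% of all named genes). The same order was held by 192 of the 617 varying probes without a name (31.1%). What these probes read was not tested. With them left out 714 named genes varied, and 215 of the 221 varying list genes were among those. The orders of the interferon, sterol, PPAR-alpha and GTPase genes differ from it, since no varying member of these 4 lists held it.

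Some wide ranges came from 1 animal only. In 179 of the 880 varying genes (20.3%) a single mouse held at least 70% of the sum of squares. That mouse was mouse 22 in 144 of them, high in 111 and low in 33, while mouse 26 accounted for 17 and the other mice for 5 to 8 each. Of the 17 genes with at least a 4-fold range in which 1 gap made up at least 80% of the range, 15 set a single mouse apart, and in 11 of these it was mouse 22. Ndufaf2, an assembly factor of respiratory complex I, measured -3.72 in mouse 22 and 0.23 to 0.37 in the others, and Hddc3, a nucleotide phosphohydrolase, 1.85 against -1.87 to -1.69. Rnase2a, a ribonuclease of the eosinophil-associated family, measured 1.79 against -2.04 to -1.76. The values of the other 4 mice lay within 0.285 on the log2 scale in each of these 3 genes. Tff3, a trefoil peptide of mucous cells, was at 1.51 in mouse 22 and at -0.94 to -0.65 elsewhere. The remaining 2 of the 17, Ifit1 and Rtp4, divided the mice into 2 and 3, with mice 14 and 22 high.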

How the data were processed

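Liver total RNA, purified on columns with a DNase step and amplified by an aminoallyl method per the labels, was hybridised in Cy3 and Cy5 against a pool of wild-type liver RNA. The deposited table holds, per probe and mouse, the authors' log10 ratio. The sources used here do not give the background correction, the normalization or the merging of dye swaps, and spot brightness was not used. No count of reads underlies the values, and the number of arrays limits the precision.

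The base and the direction of the ratio were inferred. Over the 300 most variable probes the mean linear ratio over the 5 mice had a median of 0.999 for values taken as log10 with the mouse in the numerator, 1.33 for the pool in the numerator and 0.968 for log2. The sign of single arrays was examined in 2 ways, which disagreed. The first took the mean of the log2 ratios over the mice, and there leaving every array as deposited came 7th of 16 turnings (mean absolute value of 0.291, against 0.229 with mouse 21 turned). After that result was seen, the mean of the linear ratios was used in its place, because it is 1 for a pool of the same mice while the mean log need not be 0. Among 32 turnings the arrays as deposited then came nearest to 1 (mean absolute log2 of 0.0902, next 0.299). With mouse 22 alone turned both values were larger than as deposited, at 0.479 in the first check and 0.515 in the second. With mice 22 and 26 turned together they were 0.264 and 0.340. Both checks assume a pool of the same mice, and the direction of single arrays is not settled. Over all probes 2 of 10 pairs of arrays correlated below -0.3, mice 22 and 26 (r = -0.459) and mice 14 and 22 (r = -0.322), and the median r was -0.12. By construction, ratios to a pool of the same mice tend to correlate below 0.

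Values were multiplied by 3.32 to the log2 scale. Of 39556 probes, with no missing value, 23283 had 1 gene symbol in the platform annotation (16574 current, 6594 updated through GRCm38.p6 synonyms and 115 as listed) and 16273 had none. Probes of 1 symbol were averaged. Python 3.11.15 with pandas 2.3.3, numpy 2.4.6, scipy 1.17.1 and matplotlib 3.10.9 was used. Members, lists and thresholds were chosen with earlier results of these data known.

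Spread was the SD and the range over the 5 mice, with no test and no correlation over mice. Clusters used average linkage on profiles scaled to SD 1. The calculation was tested on simulated data. Genes named are the 25 of largest SD, in each list described up to 10 members by SD and the member of smallest SD, genes with every probe past 2-fold, genes leading components and clusters, Me1 and housekeeping genes, and any others are named as chosen after their values were seen or as part of a small count. Different mice are the replicates. Alternatives were array centring, scaling, quantile normalization, the median of probes, symbols with 1 probe, each mouse left out and other thresholds. Leaving out the genes of the shared mouse order, the male and female division and the turning of single arrays were added after seeing the data.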

Additional observations from a re-analysis of the deposited data

Results flagged for a closer look

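By Dixon's criterion, a gap to the nearest other mouse of more than 71% of the whole range, 18 of the 170 genes named in the text had 1 mouse far from the other 4. Over all named genes 11.2% met it and over the varying genes 15.6%, while chance alone gives 5% for normal values. Mouse 22 stood apart in Ndufaf2 (-3.72, nearest other mouse 0.23), Moxd1 (1.75, nearest -0.99), Rnase2a (1.79, nearest -1.76), Hddc3 (1.85, nearest -1.69) and Trim12a, a TRIM-family gene (-2.51, nearest -0.27). The same mouse stood apart in Serpina1d (2.12, nearest 0.02), Serpina7 (-1.59, nearest -0.08), Tff3 (1.51, nearest -0.65), Alas2 (1.30, nearest -0.57), Creld2 (0.91, nearest -0.18) and Dcn (-0.50, nearest 0.04). Probes of 1 gene also differed most in mouse 22, as given above, and the part of this in these values was not tested.

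Mouse 21 stood apart in Agtrap (1.66, nearest -0.88) and Abcc2 (-1.36, nearest 0.01). Mouse 14 did so in Pnpla3 (1.50, nearest -0.74) and Sik1 (0.70, nearest -0.13), mouse 15 in Fasn (-1.12, nearest 0.07), and mouse 26 in Clec2h (1.58, nearest -0.89) and Mup5 (-1.50, nearest -0.07). Among the medians of the lists only that of skeletal and smooth muscle markers met the criterion, at 0.0522 in mouse 26 with the nearest at -0.01, a small size.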

How the results depend on the processing

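With array medians at 0, arrays scaled to equal width, quantile-normalized arrays, the median of probes and symbols with 1 probe, 889, 753, 709, 879 and 814 genes varied in place of 880. At least 4-fold was reached by 130 and an SD of at least 0.5 by 533. Without 1 mouse the count ran from 426 to 830, and the median SD of all genes from 0.0758 to 0.117, lowest without mouse 22 in both. The first component held 42.1% with scaled arrays and 42.1% with quantile normalization, in place of 60.6%, and 51.9% to 70.9% without 1 mouse, while the second held 18.2% to 27.6%.

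Of 594 recomputed list medians, 558 moved by no more than their leave-one-out error. That error was computed from the medians without 1 mouse. These medians are among the 594, so for them the count says little about robustness. In each alternative at least 7 of the 8 lists of largest spread were the same. Medians that moved further were, with arrays scaled to equal width, 0.28 for antigen presentation, 0.126 for endothelial markers, 0.32 for immediate-early genes, 0.70 for the interferon-inducible GTPases and 0.22 for triglyceride assembly. Under quantile normalization they were 0.128 for B cell markers, 0.28 for NRF2 targets, 0.128 for endothelial markers, 0.22 for pentose phosphate and 0.22 for triglyceride assembly. With symbols of 1 probe they were 0.0941 for X and Y genes, 0.27 for adipocyte markers, 0.34 for P450 genes and 0.32 for periportal markers.

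Without 1 mouse the median SD ran from 0.243 to 0.289 for Kupffer cell and macrophage markers, 0.0902 to 0.138 for X-inactivation and Y-linked genes, 0.165 to 0.256 for acute phase proteins, 0.102 to 0.224 for apolipoproteins, 0.0767 to 0.152 for cholangiocyte markers, 0.0629 to 0.118 for cytosolic ribosomal proteins and 0.247 to 0.462 for erythroid markers. It ran from 0.269 to 0.429 for fatty acid synthesis and desaturation, 0.183 to 0.213 for glycolysis and fructolysis, 0.108 to 0.177 for heat shock and chaperones, 0.0866 to 0.143 for housekeeping reference genes, 0.514 to 0.606 for interferon response, 0.0952 to 0.22 for major urinary proteins and secreted carriers and 0.357 to 1.01 for male-biased liver genes. The remaining ranges were 0.134 to 0.204 for metallothioneins and iron handling, 0.276 to 0.304 for periportal hepatocyte markers, 0.0557 to 0.0951 for proteasome core and lid, 0.321 to 0.655 for sex-biased liver genes, 0.159 to 0.286 for sterol uptake and SREBP control and 0.14 to 0.22 for unfolded protein and integrated stress response.

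No paired analysis was possible because a single group of mice was described. Turning the sign of all arrays gives no other SD or range. The sign of single arrays is not settled, and with 1 array turned 644 (mouse 22) to 850 genes varied, while 7 or 8 of the 8 lists of largest spread were the same and the first component held 48.9% (mouse 22) to 64.2%. With mouse 22 turned the median SD was 0.36 for male-biased genes in place of 0.88, and 0.46 for the interferon response in place of 0.59. With mouse 26 turned it was 0.33 for cholesterol synthesis in place of 0.45, and 0.27 for PPAR-alpha targets in place of 0.41. The 25 genes of largest SD shared 13 members with those found without mouse 22. The cause of these moves was not tested.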

Other observations

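The orders of the mice were also counted over probes without a gene name. Of the 617 varying probes without a gene name, 192 held the mouse order 22, 15, 21, 14, 26 from high to low, which is 31.1%, against 166 of the 880 varying named genes (18.9%). The next most frequent order among varying named genes was 26, 14, 15, 21, 22, held by 95 of 880 (10.8%) and by 22 of the 617 unnamed probes (3.57%). Among the 166 named genes of the first order 32 carry provisional Rik symbols. No cause was tested for either pattern.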
